A study of Mus musculus with 12 samples.

Results

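Lyz2 and Lyz1, the mouse genes for lysozyme M and lysozyme P, were followed in all 12 libraries of a bone marrow-derived macrophage (BMDM) series in which Cre is driven from the lysM locus, lysM being the older name of Lyz2. The members were the table entries carrying either gene name, which gave 1 transcript row for each gene, 2 genes of 43131 in all. BMDMs came from C57BL/6 mice with loxP-flanked alleles of tlr4 on both chromosomes (tlr4f/f), shared by every group, and from tlr4f/f-lysM-cre mice, which in addition carry Cre under the lysM promoter so that tlr4 is deleted in myeloid cells. Cells were grown for 7 days in 50 ng/mL of M-CSF and were left unstimulated (LPS-) or stimulated over 6 h with LPS at 1 µg/mL (LPS+), with 3 libraries for each combination of genotype and treatment. The age of the mice and the number of lysM-cre copies they carried are not given in the sources used here, and no label ties the replicates to separate animals, so p-values measure only the spread between these libraries.

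Lysozyme cuts the bond between the sugars of bacterial peptidoglycan and is stored in the granules and lysosomes of phagocytes. Macrophages and neutrophils make lysozyme M from Lyz2 in large amounts, whereas Lyz1 is best known as the lysozyme gene of Paneth cells in the small intestine. In the lysM-cre allele the Cre coding sequence was placed at the start codon of Lyz2, so that allele yields Cre in place of lysozyme M. The level of Lyz2 is therefore a readout of the knock-in locus itself, and the rank of each library in Lyz2 and in Tlr4 can be set beside the genotype in its heading.

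The heading LPS+ tlr4f/f and the heading LPS- tlr4f/f-lysM-cre may be exchanged in the deposited table. Comparisons of Lyz2 and Lyz1 levels are given in both readings. As headed, 6 libraries are LPS+ and 6 are tlr4f/f-lysM-cre. If those 2 headings are exchanged, the group headed LPS+ tlr4f/f-lysM-cre and that headed LPS- tlr4f/f keep their names, the group headed LPS+ tlr4f/f becomes unstimulated tlr4f/f-lysM-cre, and the group headed LPS- tlr4f/f-lysM-cre becomes LPS-treated tlr4f/f. The interaction of genotype and LPS has the same value in both readings. Group names below are those of the headings, and which reading is right cannot be told apart from the labels alone. For every gene and list below, a contrast of headed treatments is one of genotypes in the exchanged reading. A contrast of headed genotypes is then one of treatments.

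Both genes lie on the minus strand of chromosome 10 (GRCm38, the build also called mm10). Lyz2 (ENSMUSG00000069516.8) spans chr10:117277331-117282321 and Lyz1 (ENSMUSG00000069515.6) spans chr10:117287797-117292868, with 5475 bases between them and start sites 10547 bases apart. Each has 4 exons. Their sequences are shown because they bear on how far the reads of the genes can be separated, and because Cre was inserted at the first codon of Lyz2. The coding part of exon 1, at chr10:117282107-117282242 for Lyz2 and chr10:117292703-117292838 for Lyz1, is printed from the annotated genome, and capitals mark the bases that differ between the genes.
Lyz2 exon 1 coding part: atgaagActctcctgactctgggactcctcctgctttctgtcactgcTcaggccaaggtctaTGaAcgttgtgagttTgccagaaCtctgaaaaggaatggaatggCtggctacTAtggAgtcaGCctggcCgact
Lyz1 exon 1 coding part: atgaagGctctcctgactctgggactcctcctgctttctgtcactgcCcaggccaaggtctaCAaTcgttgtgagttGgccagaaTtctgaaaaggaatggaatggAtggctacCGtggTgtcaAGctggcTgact

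Exon 1 carries most of the coding differences. Of its 136 coding bases 14 differed, against 6 of 165 in exon 2, 0 of 79 in exon 3 and 2 of 64 in exon 4. Over the coding sequence of 444 bases, 22 differed and the longest identical run was 118 bases. The annotated mRNAs of 1263 bases (Lyz1) and 1316 bases (Lyz2) were 96.0% identical over 1262 aligned bases. Reads were 150 bases long, and none of the 1114 windows of 150 bases along the Lyz1 mRNA was identical to Lyz2. The windows differed by 1 to 15 bases with a median of 6, and 274 (24.6%) differed by 3 or fewer. Counts of these near-identical genes are therefore uncertain where reads can be assigned to either, and how the authors treated reads with several matches is not given in the sources used here.

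**Figure D1:**
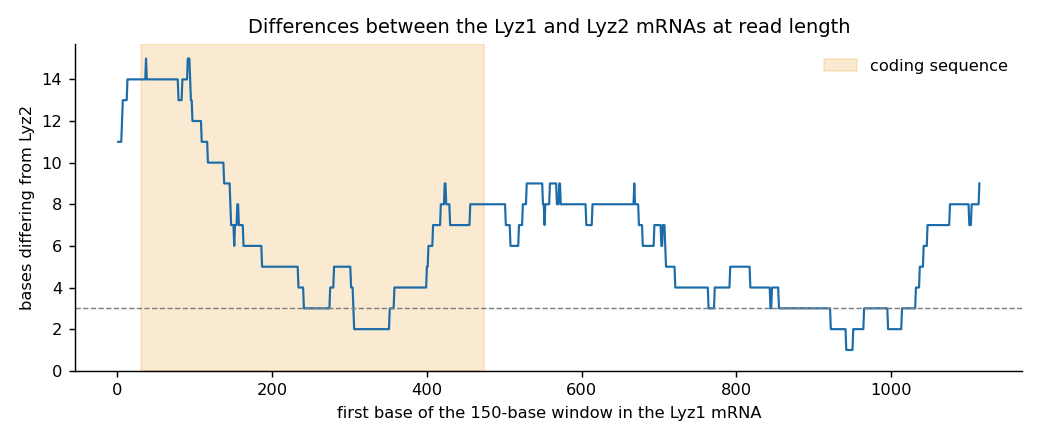
Number of bases at which a window of 150 bases of the Lyz1 mRNA differs from the aligned Lyz2 mRNA (vertical axis), by the first base of the window in the Lyz1 mRNA (horizontal axis); the shaded span is the coding sequence and the dashed line marks 3 differences. Windows that begin upstream of or early in the coding sequence hold up to 15 differences, and every one of the 1114 windows holds at least 1.

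The 201 bases that end 50 bases before the RefSeq start site are shown for both genes, because the members moved in different ways across the libraries. They lie at chr10:117282322-117282522 for Lyz2 and chr10:117292918-117293118 for Lyz1 (minus strand, GRCm38.p6, from RefSeq), and capitals mark bases that differ in the alignment.
Lyz2 upstream: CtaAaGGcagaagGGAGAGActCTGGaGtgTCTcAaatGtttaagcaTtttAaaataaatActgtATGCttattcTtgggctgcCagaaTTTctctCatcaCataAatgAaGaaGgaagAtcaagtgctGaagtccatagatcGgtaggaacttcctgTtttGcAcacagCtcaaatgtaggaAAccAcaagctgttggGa
Lyz1 upstream: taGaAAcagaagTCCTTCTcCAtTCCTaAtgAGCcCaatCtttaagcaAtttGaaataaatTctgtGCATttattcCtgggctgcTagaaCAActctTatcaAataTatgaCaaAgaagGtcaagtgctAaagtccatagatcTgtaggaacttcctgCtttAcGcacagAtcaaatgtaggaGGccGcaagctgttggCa

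The upstream stretches were identical at 151 of 199 aligned bases (75.9%), less than the coding sequences. Both held 1 match to the letters CAGGAAGT, a binding motif of ETS factors, where the other strand reads acttcctg. It lay at -100 from the RefSeq start site, from which positions are counted here. For Lyz2 the annotated start given above, 117282321, adjoins the end of the stretch shown, so the match is nearer to that start. This motif, searched on both strands, was present in 3.33% of 32851 promoter windows of 300 bases. The letters GAGGAA, the core of a PU.1 site, were found in neither promoter and in 28.3% of all promoters. The letters TTGCNNAA, a C/EBP motif, were absent from the Lyz2 promoter and present at -209 in that of Lyz1, and 10.8% of all promoters held them. A match to these letters is a description of the sequence, and no match says only that the letters are not in this window.

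Lyz2 was among the most abundant transcripts in the libraries headed LPS- and was low in those headed LPS+. The libraries headed LPS- tlr4f/f held 383956, 591201 and 1244818 Lyz2 counts, and the LPS- tlr4f/f-lysM-cre libraries held 221787, 303431 and 235201. The libraries headed LPS+ tlr4f/f held 494, 560 and 623 counts, and the LPS+ tlr4f/f-lysM-cre libraries held 3272, 2127 and 2369. The 6 high and 6 low libraries did not overlap, and within the low libraries the groups did not overlap either. For this and the overlaps given below, the share of all genes that separated in the same way was not counted. Lyz2 took 0.434% to 2.82% of all gene counts in the high libraries, where it ranked between 1 and 15 among genes, and 0.00124% to 0.00727% in the low ones, where it ranked between 2777 and 8316.

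In CPM, the counts scaled to library size with TMM factors, Lyz2 was 13106 ± 8917 (SD, n = 3) in LPS- tlr4f/f and 7587 ± 1785 in LPS- tlr4f/f-lysM-cre. It was 11.8 ± 2.20 in LPS+ tlr4f/f and 62.3 ± 11.9 in LPS+ tlr4f/f-lysM-cre. The mean of LPS+ tlr4f/f was 0.0901% of that of LPS- tlr4f/f, and the mean of LPS+ tlr4f/f-lysM-cre was 0.821% of that of LPS- tlr4f/f-lysM-cre. Neither low group was at 0. LPS- tlr4f/f was highest, followed by LPS- tlr4f/f-lysM-cre, then LPS+ tlr4f/f-lysM-cre, with LPS+ tlr4f/f lowest. Only the 2 highest groups overlapped.

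Lyz1 showed a different order. The libraries headed LPS- tlr4f/f held 244, 490 and 1455 Lyz1 counts, and the LPS- tlr4f/f-lysM-cre libraries held 135, 296 and 253. The libraries headed LPS+ tlr4f/f held 1276, 1273 and 1813 counts, and the LPS+ tlr4f/f-lysM-cre libraries held 1388, 1230 and 1528. In CPM the means were 13.1 ± 12.4, 6.92 ± 2.94, 30.2 ± 3.06 and 33.3 ± 1.07 (SD, n = 3) in the same order of groups. The LPS- tlr4f/f library of replicate 3 stood apart at 27.2 CPM, inside the range of LPS+ tlr4f/f, while the other 5 libraries headed LPS- were between 3.62 and 9.26 CPM. That library also had the highest Lyz2 level of the series, 23264 CPM. Whether Lyz1 counts in the libraries high in Lyz2 include reads of Lyz2 was not tested.

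**Figure D2:**
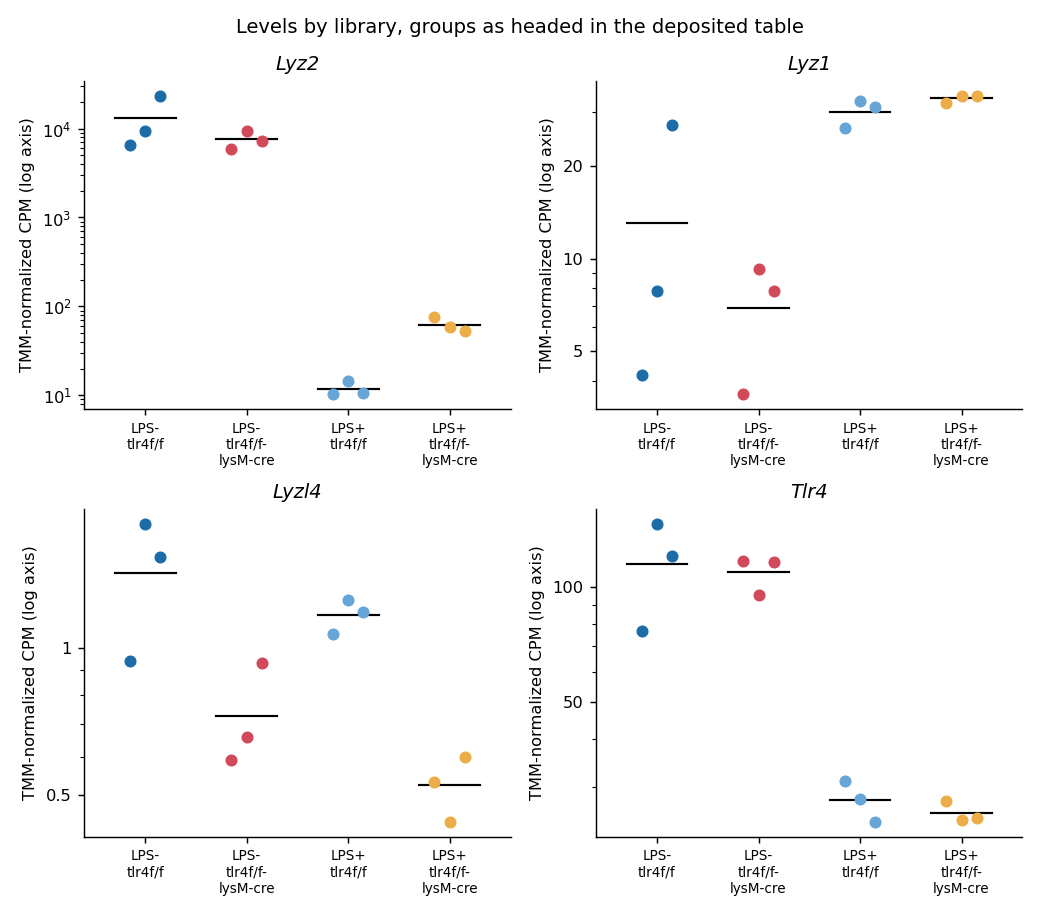
TMM-normalized CPM on log axes for Lyz2, Lyz1, Lyzl4 and Tlr4 in each of the 12 libraries (points) by the group named in the table heading, with the group mean as a bar. Lyz2 and Tlr4 were both high in the 2 groups headed LPS- and low in the 2 headed LPS+, Lyz1 was highest in the groups headed LPS+ apart from 1 LPS- tlr4f/f library at 27.2 CPM, and Lyzl4 was highest in the groups headed tlr4f/f.

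Tlr4, the targeted gene, divided the libraries at the same place as Lyz2. Its counts were 4486, 9136 and 6449 in LPS- tlr4f/f, 4367, 3041 and 3739 in LPS- tlr4f/f-lysM-cre, 1484, 1086 and 1412 in LPS+ tlr4f/f and 1191, 891 and 1117 in LPS+ tlr4f/f-lysM-cre. Libraries headed LPS+ were lower than those headed LPS- by a log2 fold change of -2.07 ± 0.15 (SE), and the libraries of the 2 treatments did not overlap. The difference between the libraries headed tlr4f/f-lysM-cre and those headed tlr4f/f was -0.09 ± 0.14 (adjusted p = 0.612, edgeR). In the exchanged reading these contrasts change places, so that the 6 libraries low in both Lyz2 and Tlr4 are the 6 of the tlr4f/f-lysM-cre genotype. As headed, they are the 6 LPS-treated libraries of both genotypes.

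Over all 12 libraries, Lyz2 had the largest absolute log2 fold change of 15775 genes between the 6 libraries headed LPS+ and the 6 headed LPS-, -8.52 ± 0.39 (SE, adjusted p = 2.1e-06, edgeR). It was a DEG, defined by a fold change above 2 with an adjusted p below 0.01, as were 4.97% of the genes tested. Lyz1 moved in the other direction by 1.74 ± 0.40 and missed the criterion at an adjusted p of 0.0104 in edgeR. It passed without the LPS- tlr4f/f library of replicate 3, with a log2 fold change of 2.30 and an adjusted p of 0.0002, and without replicate 1 of that group, with 1.53 and 0.0097. In the exchanged reading, these values are the difference of tlr4f/f-lysM-cre from tlr4f/f over both treatments.

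For the 6 libraries headed tlr4f/f-lysM-cre against the other 6, the Lyz2 log2 fold change was 0.81 ± 0.28 (adjusted p = 0.0311, edgeR) and that of Lyz1 was -0.39 ± 0.39 (adjusted p = 0.425), and neither was a DEG, against 24.6% of genes. Without the LPS- tlr4f/f library of replicate 3 the Lyz2 difference was 1.16 with an adjusted p of 0.0003 and passed the criterion, and that of Lyz1 changed sign to 0.17. In the exchanged reading this contrast is LPS against no LPS over both genotypes. With library totals the Lyz2 difference was 0.32 (adjusted p = 0.332, edgeR), where the median of all genes was -0.53.

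**Figure D3:**
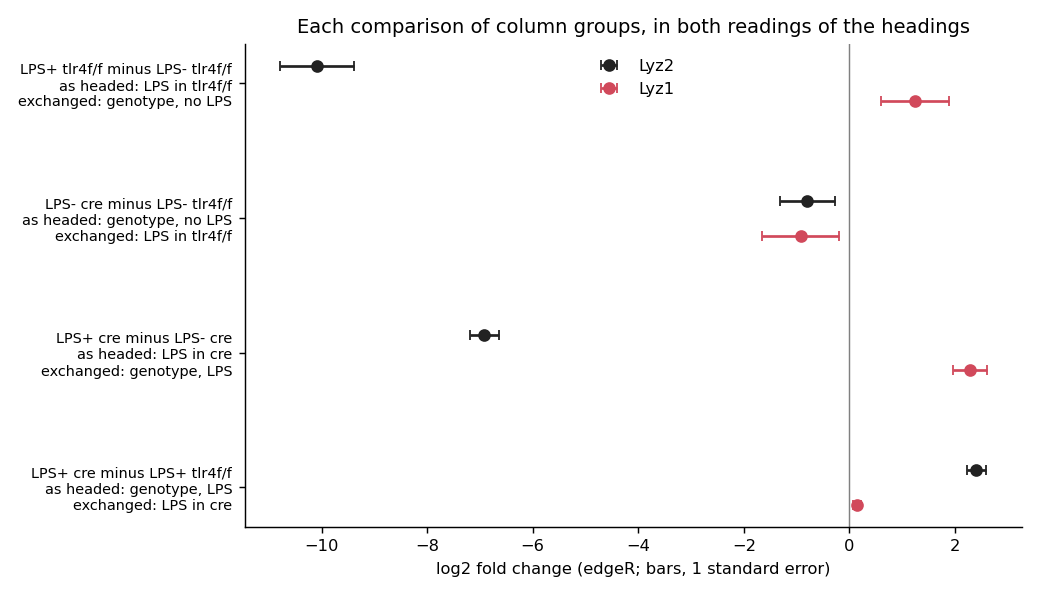
Log2 fold changes of Lyz2 and Lyz1 from edgeR (horizontal axis, bars of 1 standard error) for the 4 comparisons between column groups, each named by its headings and by its meaning in either reading. The 2 large Lyz2 decreases, -10.09 and -6.92, are the LPS comparisons as headed and the genotype comparisons if the headings are exchanged.

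LPS+ tlr4f/f against LPS- tlr4f/f is the LPS comparison in controls as headed, and the genotype comparison without LPS if exchanged. Lyz2 differed by -10.09 ± 0.70 (SE), with an adjusted p of 0.0224 in edgeR, and was not a DEG. By these criteria edgeR called 0% of 14701 genes here, although 3624 had an unadjusted p below 0.05 and DESeq2 called 244 genes higher and 220 lower. The edgeR adjusted p of Lyz2 was 0.109 with the replicate block. It was 0.176 to 0.212 when each LPS+ tlr4f/f library was left out in turn. Lyz2 passed with DESeq2 and when the LPS- tlr4f/f library of replicate 3 was left out, with a log2 fold change of -9.39 and an adjusted p of 0.0004. Lyz1 differed by 1.24 ± 0.65 (adjusted p = 0.293), and its value without that library was 2.34 (adjusted p = 0.0138).

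LPS+ tlr4f/f-lysM-cre against LPS- tlr4f/f-lysM-cre is LPS in Cre-carrying cells as headed, and the genotype comparison under LPS if exchanged. Both members were DEGs here, as were 6.08% of 14234 genes. Lyz2 fell by 6.92 on the log2 scale (SE 0.28, adjusted p = 0.0003, edgeR), the fifth largest change of the comparison. Lyz1 rose by 2.28 ± 0.33 (adjusted p = 0.0054), a 4.86-fold difference. This call of Lyz1 was lost without replicate 3 of LPS- tlr4f/f-lysM-cre (2.37, adjusted p = 0.0108) and without any one library of LPS+ tlr4f/f-lysM-cre (2.27 to 2.32, adjusted p of 0.0314 to 0.0328). The 3 libraries of each group did not overlap for either gene, in a comparison where 5741 of 14234 genes had an unadjusted p below 0.05 (edgeR).

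LPS- tlr4f/f-lysM-cre against LPS- tlr4f/f is the genotype comparison without LPS as headed, and LPS in tlr4f/f cells if exchanged. Neither member was a DEG, against 17.1% of 14635 genes. Lyz2 differed by -0.80 ± 0.51 (adjusted p = 0.262, edgeR) and Lyz1 by -0.93 ± 0.72 (adjusted p = 0.349), and the libraries overlapped for both. Without the LPS- tlr4f/f library of replicate 3 the Lyz2 value was -0.10 and the Lyz1 value changed sign to 0.18. With library totals in place of TMM factors the median of all genes moved by -0.64 in this comparison, so differences of this size depend on the scaling. Under library totals Lyz2 differed by -1.46 (adjusted p = 0.0489, edgeR) and Lyz1 by -1.58 (adjusted p = 0.116), and neither was a DEG.

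LPS+ tlr4f/f-lysM-cre against LPS+ tlr4f/f is the genotype comparison under LPS as headed, and LPS in tlr4f/f-lysM-cre cells if exchanged. Lyz2 was a DEG, higher by 2.40 ± 0.18 (SE, adjusted p = 4.2e-05, edgeR), as were 21.7% of 14540 genes. The means of 11.8 and 62.3 CPM differed 5.28-fold and the libraries did not overlap. In this comparison 9435 of 14540 genes had an unadjusted p below 0.05 (edgeR). Lyz1 differed by 0.14 ± 0.08 (adjusted p = 0.145), and its sign turned with library totals, to -0.16, when the median of all genes moved by -0.30. As headed, the group with the knock-in had the higher Lyz2 level under LPS. In the exchanged reading Lyz2 was higher with LPS than without it among tlr4f/f-lysM-cre cells.

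The interaction of genotype and LPS was 3.19 ± 0.58 for Lyz2 (adjusted p = 0.0115, edgeR) and 1.06 ± 0.79 for Lyz1 (adjusted p = 0.460). Neither met the DEG criteria, which 1.04% of 15775 genes did. The Lyz2 value passed them with DESeq2 (3.10, adjusted p = 1.9e-06) and without replicate 1 or replicate 3 of LPS- tlr4f/f, at 3.51 and 2.49. That of Lyz1 was -0.049 without replicate 3 of that group. In either reading the interaction is the difference between the 2 LPS effects and equally between the 2 genotype effects, so it does not depend on the exchange.

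The share of Lyz1 in the summed counts of both lysozymes was small and alike in the groups headed LPS-. It was 0.0635%, 0.0828% and 0.117% in LPS- tlr4f/f, and 0.0608%, 0.0975% and 0.107% in LPS- tlr4f/f-lysM-cre. It was 72.1%, 69.4% and 74.4% in LPS+ tlr4f/f and 29.8%, 36.6% and 39.2% in LPS+ tlr4f/f-lysM-cre. For the first library of LPS+ tlr4f/f the 95% interval (Wilson) was 70.0% to 74.1%, which covers counting error only, because PCR copies were not marked and reads may share a molecule. The 2 groups headed LPS+ did not overlap each other or those headed LPS-, whereas the groups headed LPS- overlapped. The mRNAs of the genes are 96.0% identical, and how many reads were assigned to the wrong gene was not tested.

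**Figure D4:**
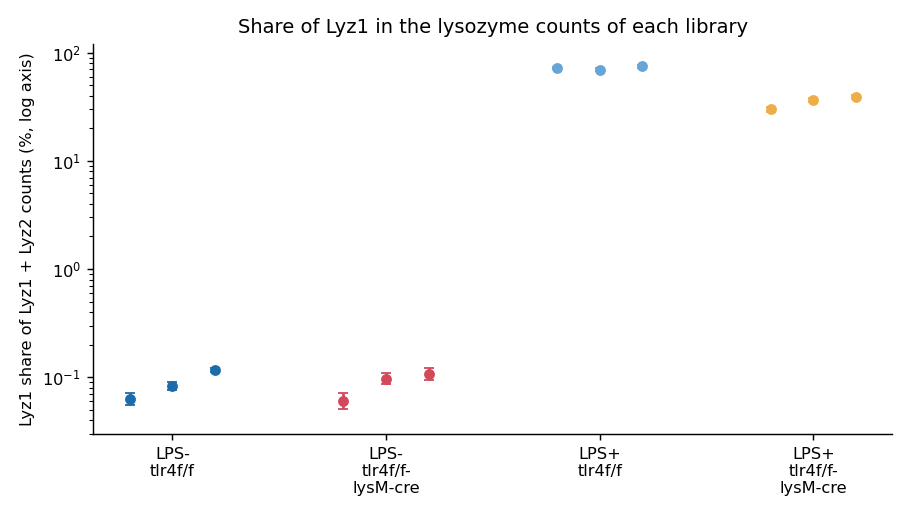
Lyz1 as a percentage of the summed Lyz1 and Lyz2 counts on a log axis, 1 point per library with its 95% Wilson interval, by the group named in the heading. The 6 libraries headed LPS- lie between 0.0608% and 0.117%, the LPS+ tlr4f/f libraries between 69.4% and 74.4% and the LPS+ tlr4f/f-lysM-cre libraries between 29.8% and 39.2%.

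The log2 ratio of Lyz1 to Lyz2 counts is free of the library scaling. Between the 6 libraries headed LPS+ and the 6 headed LPS- it differed by 10.43, with an exact two-sided permutation p of 0.0022, the smallest that 6 against 6 libraries allow. It differed by 11.56 between LPS+ and LPS- tlr4f/f, by 9.29 between LPS+ and LPS- tlr4f/f-lysM-cre, and by -2.25 between the 2 groups headed LPS+. Each had an exact permutation p of 0.1, the smallest possible for 3 against 3, so these designs cannot go below 0.05. Between the 2 groups headed LPS- the ratio differed by 0.02 (exact permutation p = 1.0). The 5 comparisons share libraries and are not independent.

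Per kilobase of the transcript lengths in the table (1057 bases for Lyz2 and 1265 for Lyz1), the levels of the genes can be set beside each other. They hold only as far as reads of these near-identical genes were assigned to the right one, which was not tested. In LPS- tlr4f/f Lyz2 was at 12399 CPM per kb and Lyz1 at 10.3. In LPS- tlr4f/f-lysM-cre they were at 7178 and 5.47. In LPS+ tlr4f/f Lyz1, at 23.9 CPM per kb, was above Lyz2 at 11.2. In LPS+ tlr4f/f-lysM-cre Lyz2, at 59.0, was above Lyz1 at 26.3. The differences of Lyz1 were small against those of Lyz2, and the sum of both was 12409 CPM per kb in LPS- tlr4f/f, 7184 in LPS- tlr4f/f-lysM-cre, 35.0 in LPS+ tlr4f/f and 85.3 in LPS+ tlr4f/f-lysM-cre. In these bulk libraries fewer cells that express a gene and less RNA per cell cannot be told apart.

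Of the 9 other genes of the lysozyme and lactalbumin family that are in the table, 6 had no count in any library. For a library taken alone, a count of 0 allows an expected count of up to about 3 at 95% confidence. Spaca5, a sperm acrosome gene, had 4 counts in a single library and Lalba, the milk protein alpha-lactalbumin, had 1. The remaining gene was Lyzl4, a lysozyme-like gene on chromosome 9 known mainly from testis. Its counts were 55, 112 and 82 in LPS- tlr4f/f, 22, 21 and 30 in LPS- tlr4f/f-lysM-cre, 51, 49 and 69 in LPS+ tlr4f/f and 23, 16 and 27 in LPS+ tlr4f/f-lysM-cre. Unlike the members, Lyzl4 separated the libraries by the genotype in the heading, but narrowly in CPM. Its lowest level in libraries headed tlr4f/f was 0.941 CPM and its highest in those headed tlr4f/f-lysM-cre was 0.934 CPM. Between the groups headed LPS- it was not a DEG, at -0.97. The log2 fold change of Lyzl4 between the headed genotypes was -1.06 ± 0.24 (SE, adjusted p = 0.0030, edgeR), lower in tlr4f/f-lysM-cre. It was a DEG there, as were 24.6% of the genes tested. In the exchanged reading this is the difference of LPS-treated from unstimulated cells.

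Genes near the locus were read beside the members. Within 500 kb of the Lyz2 start, 32 genes are annotated and 24 of them are in the table, of which 9 besides the members were tested. Between the headed treatments, that is the 6 LPS+ against the 6 LPS- libraries, none of the 9 was a DEG by edgeR or by DESeq2, although 5 had an unadjusted p below 0.05, and their log2 fold changes ran from -0.74 to 0.45. Between the headed genotypes, 2 of 9 were DEGs and higher, Rab3ip (1.31 ± 0.14) and 4933412E12Rik (2.52 ± 0.23), a share near the 24.6% of all genes, whereas with library totals 1 gene was higher and 1 lower. Rab3ip encodes an exchange factor for Rab GTPases, and 4933412E12Rik is a noncoding RNA on the opposite strand that overlaps its start, so reads in the overlap cannot be told apart without strand information. Tlr4 itself lies on chromosome 4.

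**Figure D5:**
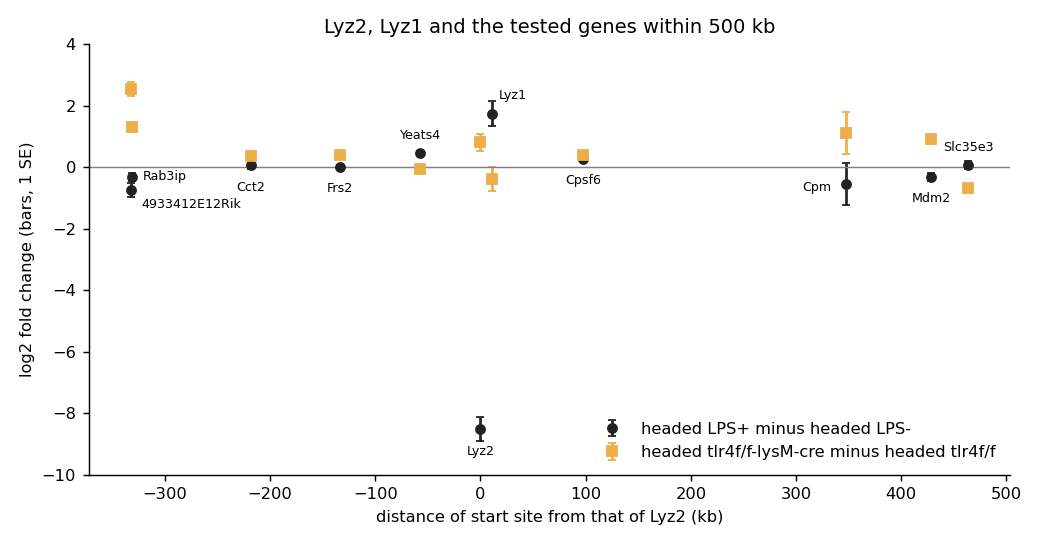
Log2 fold changes (edgeR, bars of 1 standard error) of Lyz2, Lyz1 and the 9 other tested genes within 500 kb, by the distance of their start site from that of Lyz2 in kb. Circles compare the libraries headed LPS+ with those headed LPS-, squares those headed tlr4f/f-lysM-cre with those headed tlr4f/f. In the first comparison Lyz2 lies at -8.52 and the 9 other genes lie between -0.74 and 0.45.

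The genes whose levels were most like that of Lyz2 over the 12 libraries were Ccdc97, Cnot3, Josd2, Gpank1, Tlr4, Gm3934, Tomm34, Cdipt, Tnfrsf26 and Rrnad1, with Pearson r between 0.929 and 0.971 on log2 CPM among 15775 genes. Their Spearman rho ran from 0.629 to 0.958. The libraries fall into 6 high and 6 low ones in Lyz2, and r was computed across that split. Most of these genes differed little between the headed treatments: the change was -0.45 for Ccdc97 and -0.27 for Cdipt. The larger ones were -1.22 for Gm3934, -2.07 for Tlr4 and -7.16 for Tnfrsf26, a member of the TNF receptor superfamily. Of the 9 with a known position, 5 lie on chromosome 7, which holds 7.84% of the tested genes, and 0 on chromosome 10. Chromosome 7 was not chosen in advance, and this share was not tested. Lyz1 had an r of -0.74 and a rho of -0.49 with Lyz2.

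Genes that act on the products of lysozyme were read from a list of peptidoglycan sensing and degradation. Of 11 tested, 5 were DEGs and higher and 1 was a DEG and lower in LPS+ tlr4f/f-lysM-cre against LPS+ tlr4f/f, where 21.7% of all genes were called, and the same 6 genes were called in the same directions in LPS- tlr4f/f-lysM-cre against LPS- tlr4f/f, where 17.1% were called. The 6 were Nod1 and Nod2, the cytosolic sensors of peptidoglycan fragments, their kinase Ripk2, the inflammasome sensor Nlrp3, and the lysosomal transporters Slc15a3 and Slc46a3, of which Slc46a3 was lower. Nod2 was between 57.3 and 65.0 CPM in LPS+ tlr4f/f-lysM-cre and between 2.64 and 3.81 in LPS+ tlr4f/f. Its log2 fold change was 4.28 ± 0.12 (adjusted p = 8.8e-11, edgeR). If the headings are exchanged, this comparison is LPS against no LPS in tlr4f/f-lysM-cre cells. The list median was 0.27 against -0.02 over all genes, and -0.03 against -0.32 with library totals. In the 6 libraries headed LPS+ against the 6 headed LPS-, 3 of 11 were DEGs (4.97% of all genes), all lower, with Nod2 at -1.06 ± 0.15, and none was a DEG with library totals.

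Other antimicrobial proteins of myeloid cells were taken from a list of 19 genes in the table. In LPS+ tlr4f/f-lysM-cre against LPS+ tlr4f/f, 5 of 13 tested were DEGs and higher and 1 was lower, beside 21.7% of all genes. The list median was 0.30 against -0.02 over all genes, and 0.0027 against -0.32 with library totals. The largest change was that of Acod1, the enzyme that makes itaconate, between 3995 and 4816 CPM against 8.28 to 12.2 CPM (8.71 ± 0.18). Acod1 was between 7264 and 11734 CPM in LPS- tlr4f/f-lysM-cre and at most 42.3 CPM in LPS- tlr4f/f. It was thus high in both groups headed tlr4f/f-lysM-cre, which are the LPS-treated groups if the headings are exchanged. For the headed treatments, 2 of 16 were DEGs (4.97% of all genes), the iron-binding lipocalin Lcn2 (-3.34 ± 0.73) and the protease inhibitor Slpi (-3.97 ± 0.81), both lower. Without the LPS- tlr4f/f library of replicate 3, 3 of this list were lower. Lcn2 and Slpi were also DEGs and higher between the headed genotypes, where 24.6% of all genes were called. The mean of Lcn2 was 3.08 CPM in LPS- tlr4f/f and 531 in LPS- tlr4f/f-lysM-cre. It was 0.341 in LPS+ tlr4f/f and 49.6 in LPS+ tlr4f/f-lysM-cre. The list includes Mpeg1, Mpo and other genes that also stand in the marker lists used here.

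Of 22 lysosomal hydrolases, 2 were DEGs and higher in LPS+ tlr4f/f-lysM-cre against LPS+ tlr4f/f, the protease cathepsin C (Ctsc, 1.95 ± 0.27) and the acid phosphatase Acp2 (1.47 ± 0.06), with a list median of -0.20 against -0.02 over all genes. This share was below the 21.7% of all genes called, and with library totals 2 were higher and 2 lower. With exchanged headings this comparison is LPS against no LPS in tlr4f/f-lysM-cre cells. In LPS+ against LPS- libraries, Ctsc alone was a DEG, at -1.52 ± 0.31, beside 4.97% of all genes, and without the LPS- tlr4f/f library of replicate 3 there were 3. The log2 fold changes of the 22 enzymes between those libraries ran from -1.52 to 0.68, against -8.52 for Lyz2.

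Among 16 transcriptional regulators of myeloid genes, 6 were DEGs and higher and 4 were lower in LPS+ tlr4f/f-lysM-cre against LPS+ tlr4f/f, beside 21.7% of all genes. This comparison is LPS against no LPS in tlr4f/f-lysM-cre cells if the headings are exchanged. The largest change was that of Gfi1, a repressor active in granulocytes, at 6.39 ± 0.46. Cebpb, a factor of the C/EBP family that acts in activated macrophages, was higher by 1.43 ± 0.08 and Cebpa lower by -1.12 ± 0.07. For the headed treatments, 1 of 16 was a DEG and lower, Cebpd, beside 4.97% of all genes. Spi1, which encodes PU.1, was at -0.32 ± 0.08 there and did not meet the fold criterion. With library totals 2 of the 16 were DEGs there, both higher.

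The libraries carried the markers of the labelled cell type. All 16 macrophage markers were detected in every group, and their summed level was 13187 to 20632 CPM in LPS- tlr4f/f, 20635 to 25273 in LPS- tlr4f/f-lysM-cre, 14834 to 16352 in LPS+ tlr4f/f and 17064 to 17865 in LPS+ tlr4f/f-lysM-cre. The 14 neutrophil markers, from cells that also make lysozyme M, summed to 30.0 to 58.6, 133 to 567, 26.4 to 30.9 and 115 to 127 CPM in the same order. All 14 had counts in LPS- tlr4f/f-lysM-cre, the group with the highest sums. The number without any count was 1 in LPS- tlr4f/f, 2 in LPS+ tlr4f/f and 2 in LPS+ tlr4f/f-lysM-cre, Ly6g among them each time. The 12 stromal markers, all detected in every group, summed to 14.7 to 1030 CPM in LPS- tlr4f/f, 292 to 2331 in LPS- tlr4f/f-lysM-cre, 90.7 to 104 in LPS+ tlr4f/f and 148 to 173 in LPS+ tlr4f/f-lysM-cre. Their part in the lysozyme results was not tested. Dendritic cell, lymphocyte and erythroid markers each summed to at most 14.5 CPM in any library.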

How the data were processed

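RNA of 12 BMDM libraries was sequenced as 150-base pairs. Per the labels, ribosomal RNA was removed and libraries were made with a kit that does not mark strand. The paper calls them polyA libraries. The submitters' processing notes name Trimmomatic 0.36, FastQC, HISAT2, HTSeq and mm10. The authors deposited raw, whole-number counts per transcript without normalization. The row with the highest total was taken for each of 43131 genes, after 7551 of 7596 Ensembl gene IDs were matched to symbols, which left 33577087 to 56445268 counts per library.

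Libraries were grouped by their labels. Each of 4 pairwise comparisons used 6 libraries, and the interaction, the headed treatments and the headed genotypes were compared over all 12. Counts were tested with edgeR 4.0.16 in R 4.3.3 (filterByExpr, TMM, robust quasi-likelihood, Benjamini-Hochberg over all genes tested). The DEG criteria were those of the study, which used DESeq: an adjusted p below 0.01 with more than a 2-fold change. Shares have Wilson 95% intervals, and count ratios were tested by exact permutation. Sequences come from GENCODE and RefSeq. The edgeR tests were also run on simulated counts. Fewer genes changed there than in most comparisons here, so that run does not show how the tests perform on these data. Members, gene lists and alternatives were chosen with earlier results of these data known. Named genes are the members, Tlr4, the lysozyme family, genes within 500 kb, the 10 genes most like Lyz2 and, in each list, the gene with the largest change in LPS+ tlr4f/f-lysM-cre against LPS+ tlr4f/f. Other list genes were named after their values were seen. The alternatives were DESeq2 1.42.0, RLE factors, library totals, 2 other filters, all libraries in 1 fit, the replicate number as a block, other transcript rows, the exchange of headings and each library left out. DESeq2, library totals and leaving out LPS- tlr4f/f replicate 3 were added for the lists after seeing the data.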

Additional observations from a re-analysis of the deposited data

Results flagged for a closer look

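The effect of LPS on Lyz2 differed between the genotypes by an interaction of 3.19 on the log2 scale (adjusted p = 0.0115, edgeR), since Lyz2 changed by -10.09 in tlr4f/f cells but by -6.92 in tlr4f/f-lysM-cre cells as headed. All 6 libraries headed LPS+ were below all 6 headed LPS-. The value is the same if the headings are exchanged.

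Among genes near Lyz2, the LPS effect differed between the genotypes for Rab3ip, with an interaction of -1.15 (adjusted p = 0.0309, edgeR), and for Mdm2, a ubiquitin ligase that acts on p53, with -1.12 (adjusted p = 0.0276, edgeR). Mdm2 was between 114 and 194 CPM in LPS- tlr4f/f, between 378 and 514 in LPS- tlr4f/f-lysM-cre, between 178 and 194 in LPS+ tlr4f/f and between 226 and 247 in LPS+ tlr4f/f-lysM-cre. Rab3ip was likewise highest in LPS- tlr4f/f-lysM-cre, between 20.3 and 28.4 CPM, and at most 14.3 CPM in the other groups. Rab3ip and Mdm2 were the 2 of 9 tested neighbours with an adjusted p below 0.05 in edgeR. The share of all genes below that cutoff was not counted. None of the 3 interactions met the adjusted p of 0.01 used for DEGs in edgeR, and 1.04% of 15775 genes met the DEG criteria. DESeq2 called that of Lyz2 and those of 2 other genes within 500 kb, beside 348 higher and 296 lower over all genes.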

How the results depend on the processing

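The comparisons of Lyz2, of Lyz1 and of the ratio of their counts were recomputed under the alternatives that apply to each, and 276 of 319 values kept their direction and their side of the threshold, which was the DEG criteria for the genes and a p of 0.05 for the ratio. Of the others, 19 changed sign, 17 passed criteria not met before and 7 no longer met them. The cause was not tested. The 276 include values that could not change, so they do not measure how stable the results are. Each member had 1 transcript row, so taking its lowest row changed nothing. The interaction is the same with the headings exchanged. Ratio tests between pairs of groups cannot reach a p of 0.05. The 276 also include Lyz2 for LPS in tlr4f/f, at -10.09 as headed and -0.80 with the headings exchanged. Values below are log2 fold changes of the comparison as headed.

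With the headings exchanged, values changed sign or call by construction: Lyz1 became -0.93 for LPS in tlr4f/f and 1.24 for the genotype without LPS; LPS in tlr4f/f-lysM-cre became 2.40 for Lyz2 and 0.14 for Lyz1; the genotype under LPS became -6.92 for Lyz2 and 2.28 for Lyz1; the treatments over all libraries became 0.81 and -0.39, and the genotypes -8.52 and 1.74. The log2 ratio of Lyz1 to Lyz2 became -2.25 for the treatments within tlr4f/f-lysM-cre, 9.29 for the genotype under LPS and -1.12 for the treatments.

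For LPS in tlr4f/f, Lyz2 passed with DESeq2 (-10.08), without a filter (-10.08) and with all 12 libraries in 1 fit (-10.12). For LPS in tlr4f/f-lysM-cre, the call of Lyz1 was lost with all 12 libraries in 1 fit (2.27). The interaction for Lyz2 passed with DESeq2 (3.10), library totals (3.55) and at least 10 counts in every library (3.16). For the treatments over all libraries, Lyz1 passed with DESeq2 (1.71), library totals (1.91) and at least 10 counts in every library (1.73). Between the headed treatments DESeq2 called 5 antimicrobial genes lower in place of 2, 2 lysosomal hydrolases in place of 1 and 2 regulators in place of 1, and library totals called 0 of the peptidoglycan genes in place of 3. Library totals turned Lyz1 for the genotype under LPS to -0.16.

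Leaving out each library in turn gave Lyz2 -10.40 to -9.39 for LPS in tlr4f/f, Lyz1 1.95 to 2.54 for the treatments within tlr4f/f-lysM-cre, and Lyz1 -1.35 to 0.18 for the genotype without LPS. The interaction ran from 2.49 to 3.51 for Lyz2 and from -0.049 to 1.48 for Lyz1. For the treatments Lyz1 ran from 1.53 to 2.30, and for the genotypes Lyz2 ran from 0.64 to 1.16 and Lyz1 from -0.60 to 0.17. The difference of the log2 ratio between the groups headed LPS- ran from -0.19 to 0.27.

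The replicate numbers are not stated to pair libraries. Same-numbered libraries of different groups had deviations from the group means that correlated at -0.04 to 0.47 over 18 pairs, and 5 exceeded 0.1. With the replicate block, Lyz1 no longer met the criteria for LPS in tlr4f/f-lysM-cre cells (2.37) and met them for the treatments (1.94), and no other call of a member changed. Depth does not limit the counts of the members, the lowest of which was 135.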
